A study of Saccharomyces cerevisiae with 25 samples.

Results

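The 44 genes described here encode enzymes that make amino acids in budding yeast, together with 2 regulators, GCN4 and LEU3. They were chosen by name, by the pathway that their prefix stands for, out of 6650 named genes in the deposited table. They are GCN4 alone, 7 arginine genes (ARG1, ARG2, ARG3, ARG4, ARG7, ARG8 and CPA1), 6 histidine genes (HIS), 8 lysine genes (LYS), 5 tryptophan genes (TRP), 6 genes of the shared aromatic pathway (ARO), 5 isoleucine and valine genes (ILV), 4 leucine genes (LEU) and the 2 branched-chain aminotransferase genes BAT1 and BAT2. All 44 passed the filter on low values and had a 0 min value. All 44 names matched the R64 annotation, and none of the annotated genes overlapped a neighbour. Cells of Saccharomyces cerevisiae, strain background BY4741 with the genotype delta-vip1 and pho84pr-YFP, were grown in high-phosphate medium, washed and moved to medium without phosphate. RNA-seq was done on 1 library from high phosphate (0 min) and on 24 libraries taken at intervals of 15 min without phosphate. The libraries without phosphate were read as an early window (15 to 120 min), a middle window (135 to 240 min) and a late window (255 to 360 min), with 8 libraries each. Every library, the 0 min one included, comes from the same deletion strain, so no strain with VIP1 was compared here.

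In yeast, starvation for an amino acid activates the kinase Gcn2, which slows general translation while raising translation of the mRNA of GCN4. The Gcn4 protein is a transcription factor that binds the core sequence TGACTC and raises transcription of genes in many amino acid pathways at once, a response called general amino acid control. Single pathways have controls of their own: Leu3 acts on leucine and branched-chain genes, Lys14 on lysine genes, and Arg80, Arg81 and Arg82 on arginine genes. A level of GCN4 mRNA is therefore not a level of Gcn4 protein.

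VIP1 encodes an inositol pyrophosphate kinase, and PHO84 a phosphate transporter whose promoter drives YFP in this strain. Although the genotype names it as deleted, all 25 libraries list VIP1, with 9.69 to 55.7 RPM (the share of a library's reads that fall on a gene, scaled to 1000000). HIS3 and LEU2, which the strain background lacks, were listed in 0 libraries and are not among the 44. MET17 was also listed in 0 libraries, and URA3 in 8, with 4.13 to 10.3 RPM on 10 to 43 reads. LYS2 and TRP1 were listed in all 25. Depth ran from 413033 reads at 345 min to 4162690 at 165 min, and the 345 min library, the shallowest, was blank for ARG2, ARG3 and LYS5. Reads of 138 ribosomal protein genes took 33.8% of the library at 0 min, 34.5 to 37.1% in the early window, 6.14 to 31.7% in the middle window and 4.55 to 5.39% in the late window. The 44 genes together took 0.925% of reads at 0 min, 0.821 to 0.985% early, 1.01 to 1.10% middle and 1.02 to 1.24% late. Set against the reads outside ribosomal protein genes, their share was 1.40% at 0 min, 1.29 to 1.51% early, 1.09 to 1.54% middle and 1.07 to 1.31% late. RPM are shares of a library, so a gene made by fewer cells and a gene with less RNA per cell cannot be told apart here.

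The amino acid genes did not move as a block. The late window was set against the early one to ask which of them changed during starvation itself. Of the 44, 6 rose and 1 fell, which is 15.9% of the set, while 25.9% of the 5298 genes tested were called in this comparison. Genes were called where limma's adjusted p (Benjamini-Hochberg, over all genes tested) was under 0.05 and the log2 change at least 1. The genes that rose were HIS4, LYS1, CPA1, LYS20, ARG1 and LEU4, and the gene that fell was LEU9. Higher calls made up 13.6% of the 44 and 21.2% of all genes, and lower calls 2.27% of the 44 and 4.66% of all genes. The median log2 change was 0.37 over the 44 and 0.49 over all genes tested. With each library centred on its median, the 44 split into 3 higher (CPA1, HIS4 and LYS1) and 3 lower (HIS6, ILV5 and LEU9). That is 6.82% of them in each direction, against 8.55% higher and 9.06% lower over all genes. Late values lay above all early values for 15 of the 44 (34.1%, with 36.1% of all genes) and below all early values for 4 (9.09%, with 6.51% of all genes): HIS6, ARO2, ILV5 and LEU9.

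**Figure D1:**
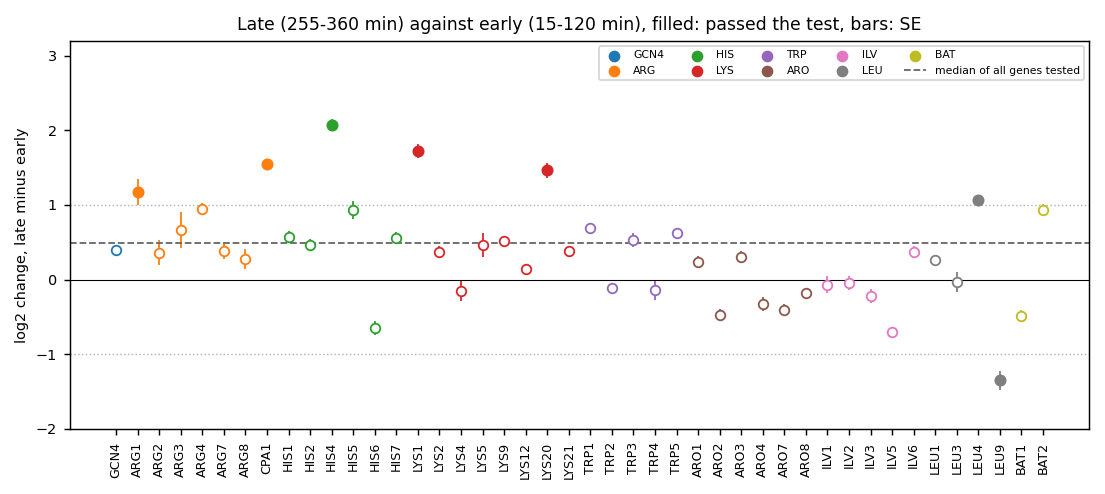
Log2 change of each of the 44 genes, late minus early window, in order of pathway. Filled points passed the test, bars are standard errors, dotted lines mark the required change of 1 in either direction and the dashed line is the median of all genes tested, 0.49. HIS4 stands highest at 2.07 and LEU9 lowest at -1.35, and aromatic and isoleucine-valine genes all lie below the dashed line.

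Against the 0 min library in high phosphate, changes came late. In the early window 0 of the 44 passed, where 0.115% of 5230 genes did (0.0765% higher and 0.0382% lower), and with limma 5 had an unadjusted p under 0.05. The early changes ran from -0.83 for ARG8 to 0.57 for HIS1, both short of the test. In the middle window HIS4 (1.99), LYS1 (1.49) and HIS1 (1.37) rose, 6.82% of the 44, while 10.8% of all genes were called (6.33% higher and 4.46% lower). In the late window 7 rose (HIS4, LYS1, LYS20, CPA1, HIS1, ARG4 and LEU4) and LEU9 fell, 18.2% of the 44, while 28% of all genes were called. The higher calls were 15.9% of the 44 and 21.1% of all genes, and the lower call 2.27% of the 44 and 6.85% of all genes. The median late change from 0 min was 0.11 over the 44 and 0.41 over all genes. With centred libraries 2 rose (HIS4 and LYS1) and 2 fell (LEU9 and ARO7), while LYS20, CPA1, HIS1, ARG4 and LEU4 did not pass. That is 4.55% of the 44 in each direction, against 10.8% higher and 11.8% lower over all genes. These comparisons share the 0 min library, which is 1 library, and their p-values measure the scatter of the 24 later libraries around a smooth curve. Asked for any change over time without phosphate, 12 of the 44 passed (27.3%, with 42% of all genes): HIS1, HIS4, HIS5, LYS1, LYS20, ARG1, ARG3, ARG4, CPA1, LEU4, LEU9 and BAT2. None of the TRP, ARO and ILV genes was among them. With centred libraries 15 passed (34.1%, with 30.8% of all genes), of which 8 were among the 12: ARG4, HIS5, LEU4 and BAT2 no longer passed, while HIS6, TRP4, ARO2, ARO4, ARO7, ILV5 and BAT1 did. Before centring, 13 of the 44 stayed within a factor of 2 between their lowest and highest library without phosphate. The share of all genes that did so was not counted, so this is not read as a trait of the 44.

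**Figure D2:**
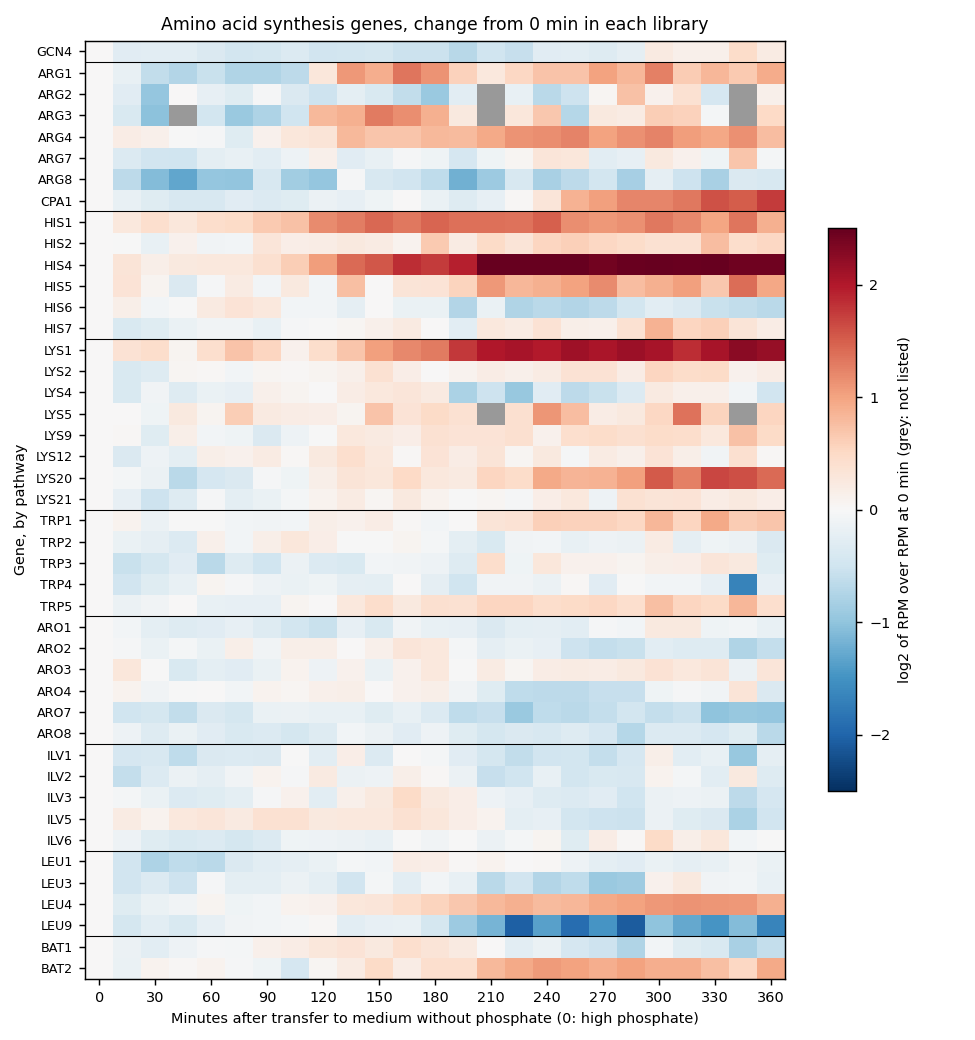
Log2 of RPM in each library over RPM at 0 min for the 44 genes, grouped by pathway from top to bottom, with time without phosphate from left to right. Red is above and blue below the 0 min level, and grey marks a library in which the gene was not listed. Above the 0 min level, a log2 difference of at least 1 in 3 successive libraries began at 120 min for HIS4 and HIS1. It began at 150 min for LYS1, 225 min for ARG4, 270 min for CPA1 and 285 min for LYS20 and LEU4. Below the 0 min level it began at 210 min for LEU9. Paler shades of these colours begin sooner.

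By pathway, the median late change from early was 0.67 for the arginine genes, 0.57 for histidine, 0.53 for tryptophan, 0.42 for lysine, 0.12 for leucine, -0.07 for isoleucine and valine, and -0.25 for the aromatic genes. The first 3 lie above the median over all genes of 0.49 and the others below it. After centring, the arginine (0.18), histidine (0.07) and tryptophan (0.03) medians stayed above 0, and the lysine median turned to -0.07 and the leucine median to -0.38. All 7 arginine genes had late changes above 0 before centring, as did 4166 of all 5298 genes tested. With centred libraries ARG2 (-0.125), ARG7 (-0.113) and ARG8 (-0.221) were below 0. In the other pathways signs were already mixed before centring: HIS6, LYS4 and LEU9 had changes below 0 in the pathways of HIS4, LYS1 and LEU4.

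**Figure D3:**
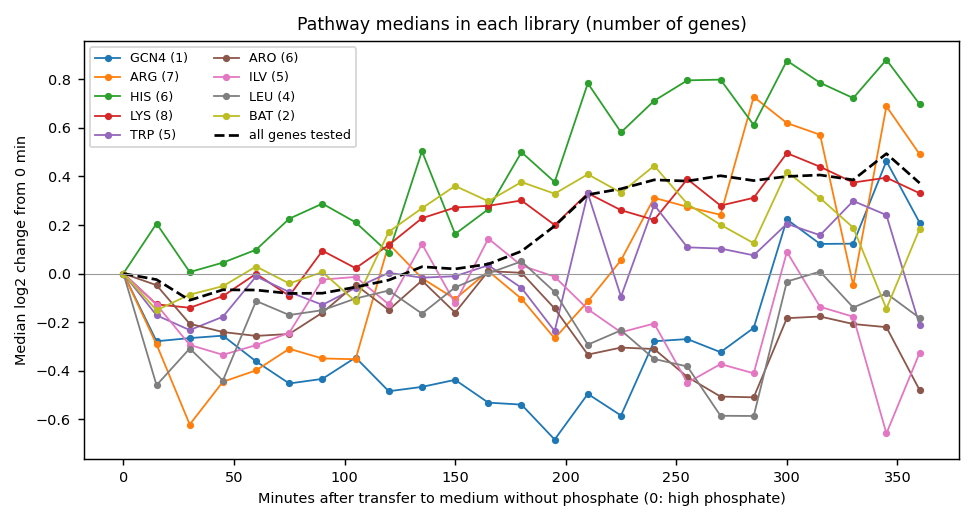
Median log2 change from 0 min in each library for the genes of each pathway (number of genes in brackets) and for all genes tested (dashed), by minutes without phosphate. The arginine median lies below 0 through 105 min. The aromatic, isoleucine-valine and leucine medians end below 0 while the median of all genes ends at 0.37. The tryptophan median lies between 0.075 and 0.299 from 240 to 345 min and is -0.213 at 360 min.

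HIS4 showed the largest rise of the 44 in both late comparisons. It encodes an enzyme of several steps of histidine synthesis (chromosome III, 65934 to 68333, minus strand). HIS4 stood at 379.5 to 465.2 RPM in late libraries (median 396.7), against 79.2 to 148.5 RPM in early libraries (median 87.8) and 71.6 RPM at 0 min. The late and early libraries did not overlap. The rise was gradual. HIS4 had 109.5 RPM in the 105 min library, 148.5 RPM by 120 min, 258.5 RPM by 165 min and 411.5 RPM by 210 min, and lay between 379.5 and 465.2 RPM in every later library. Its log2 change was 2.07 late against early (SE 0.07, limma adjusted p = 2.7e-21) and 2.503 late against high phosphate (SE 0.16, adjusted p = 1.4e-13). With centred libraries these were 1.58 and 2.08. The value rests on 114 to 1076 reads per library.

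The upstream stretch of HIS4 is shown because this gene rose most among those that hold TGACTC. It holds the 200 bases that end 100 bases before the coding start, 5′ to 3′ on the gene's strand, from the RefSeq R64 genome, with TGACTC in capitals. It holds the motif at 3 places, whose first bases lie 255, 243 and 199 bases before the coding start.
HIS4 (chrIII:68434-68633, minus strand): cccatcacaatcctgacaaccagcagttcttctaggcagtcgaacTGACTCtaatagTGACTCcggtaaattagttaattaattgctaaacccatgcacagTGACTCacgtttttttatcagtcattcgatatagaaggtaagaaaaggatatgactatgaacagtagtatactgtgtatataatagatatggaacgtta

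HIS1, which encodes the enzyme of the first step of histidine synthesis, was already high in the middle window. It stood at 944.7 to 1286 RPM late (median 1136), against 614.1 to 1161 early (median 703.6) and 511.1 at 0 min. The late and early libraries overlapped through the 120 min library, the highest early value. HIS1 rose by 1.37 in the middle window (SE 0.15, adjusted p = 1.0e-07) and by 1.15 in the late window (SE 0.15, adjusted p = 3.2e-07) against high phosphate, and its highest library was 240 min with 1446 RPM. Late against early it differed by 0.58, short of the required size. HIS1 and HIS4 were also the earliest to hold a change: the log2 difference from 0 min was at least 1 in 3 successive libraries from 120 min.

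The rest of the pathway spread around these. HIS5, a histidinol-phosphate aminotransferase, passed the test for change over time (fitted range 1.02, adjusted p = 2.4e-06), with 54.1 to 89.6 RPM late (median 67.5), against 26.3 to 43.0 early (median 34.7). Its late change of 0.99 from 0 min was just short of 1, and was 1.00 to 1.04 and passed without the 285, 300, 330 or 360 min library. HIS7, a glutamine amidotransferase and cyclase, and HIS2, a phosphatase, had late changes from early of 0.56 and 0.46, near the median of all genes, and their late libraries lay above the early ones. HIS6, an isomerase in the middle of the pathway, stood at 47.1 to 64.9 RPM late (median 52.0), against 73.7 to 99.0 early (median 81.4), without overlap. Its log2 change was -0.65 (SE 0.10) and reached -1.14 with centred libraries, where it passed.

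In the lysine pathway, LYS1 of the last step and LYS20 of the first rose, and the other 6 genes did not pass late against early. LYS1 encodes saccharopine dehydrogenase, which forms lysine (chromosome IX, 419615 to 420736, minus strand). LYS1 stood at 87.2 to 116.2 RPM late (median 103.9), against 25.4 to 39.8 early (median 32.7) and 24.4 at 0 min, without overlap. It climbed through the middle window to 101.5 RPM at 225 min and then held that level. Its log2 change was 1.72 late against early (SE 0.10, adjusted p = 5.6e-16) and 2.10 late against high phosphate (SE 0.21, adjusted p = 2.0e-09). With centred libraries it passed in both, at 1.22 and 1.67. A log2 difference of at least 1 from 0 min held from 150 min.

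LYS20 and LYS21 both encode homocitrate synthase, the first step. LYS20 stood at 148.4 to 260.4 RPM late (median 209.7), against 51.7 to 91.1 early (median 75.0) and 82.4 at 0 min, without overlap. LYS21 stood at 132.7 to 186.8 RPM late (median 172.3), against 100.2 to 153.6 early (median 127.4) and 144.2 at 0 min, with overlap. LYS20 rose by 1.47 late against early (SE 0.10, adjusted p = 4.3e-14), and LYS21 differed by 0.38. Each had a whole number of reads in 4% of libraries, as happens where reads are divided between similar genes, so their separate values are uncertain. With centred libraries the LYS20 change was 0.97 and did not pass.

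The other lysine genes had small changes. LYS9, a saccharopine reductase, had 188.7 to 261.5 RPM late, against 122.4 to 174.1 early, a log2 change of 0.51 without overlap. LYS2, the α-aminoadipate reductase, had 87.2 to 117.5 RPM late, against 62.6 to 85.4 early, a change of 0.37 without overlap. LYS5, which activates Lys2, had a change of 0.47 on few reads (17 to 78 per library). LYS12, homoisocitrate dehydrogenase, had 0.14 and LYS4, homoaconitase, -0.15, and both overlapped between windows.

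LYS20 was the gene among the 6 risers with no TGACTC in 500 bases before its coding start. Its stretch, placed as for HIS4, is shown for comparison and holds no capitals.
LYS20 (chrIV:133137-133336, plus strand): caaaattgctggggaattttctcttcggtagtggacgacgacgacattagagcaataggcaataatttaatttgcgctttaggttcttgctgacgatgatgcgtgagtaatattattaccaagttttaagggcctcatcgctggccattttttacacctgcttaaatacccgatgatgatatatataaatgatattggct

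Arginine genes followed 3 courses. CPA1 encodes the small subunit of the arginine-specific carbamoyl phosphate synthetase (chromosome XV, 882899 to 884134, plus strand) and rose late. CPA1 stood at 532.3 to 982 RPM late (median 705.6), against 221.9 to 262.9 early (median 236.3) and 292.6 at 0 min, with a wide gap between the windows. It was still at 234.4 to 361.2 RPM in the middle window and climbed through the late one, to 982 RPM at 360 min. Its log2 change was 1.54 late against early (SE 0.08, adjusted p = 1.9e-17) and 1.27 late against high phosphate (SE 0.17, adjusted p = 2.7e-07). Late against early it passed with centred libraries too, at 1.05.

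ARG1, argininosuccinate synthetase, and ARG3, ornithine carbamoyltransferase, dipped and then stepped up between 105 and 120 min. ARG1 had 35.6 RPM in the 0 min library, 22.6 RPM by 105 min, 43.1 RPM by 120 min and 89.6 RPM by 165 min. ARG3 had 14.2 RPM in the 0 min library, 10.0 RPM by 105 min, 24.9 RPM by 120 min and 35.1 RPM by 150 min. Both were lower again at the end of the middle window. ARG1 stood at 55.5 to 84.7 RPM late (median 62.9), against 21.0 to 43.1 early (median 22.9), without overlap, and rose by 1.17 (SE 0.18, adjusted p = 7.3e-07). Its change with centred libraries was 0.67 and did not pass, and its late change of 0.78 from 0 min (adjusted p = 0.0947) did not pass either. ARG3 passed for change over time alone (fitted range 1.78, adjusted p = 0.00151), on 11 to 132 reads where listed.

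ARG4, argininosuccinate lyase, took a steadier course. ARG4 stood at 206.7 to 286.9 RPM late (median 258.1), against 97.5 to 151 early (median 131.8) and 120.9 at 0 min, without overlap. It rose by 1.06 against high phosphate (SE 0.17, adjusted p = 6.8e-06), and differed by 0.95 from early. The ornithine-forming genes differed less. ARG7, ornithine acetyltransferase, had a late change from early of 0.38, ARG2, acetylglutamate synthase, 0.36 and ARG8, acetylornithine aminotransferase, 0.28, all 3 with overlapping windows. ARG8 was at 102.4 RPM at 0 min and at 41.8 to 78.0 RPM in all 8 early libraries (log2 change -0.83, SE 0.30, adjusted p = 0.442 with limma). It had whole reads in 12% of libraries, so its values may include divided reads.

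**Figure D4:**
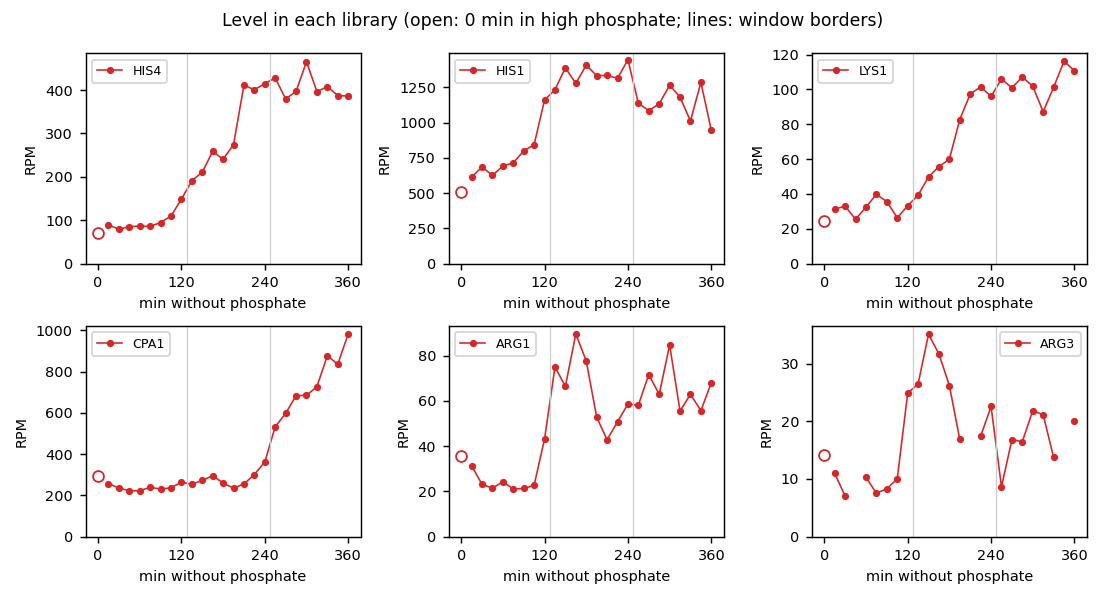
RPM of HIS4, HIS1, LYS1, CPA1, ARG1 and ARG3 in each library by minutes without phosphate. Open points are the 0 min library in high phosphate, grey lines mark the borders of the early, middle and late windows, and gaps are libraries in which ARG3 was not listed. HIS4 and LYS1 climb through the middle window, CPA1 in the late window, and ARG1 and ARG3 step up at 120 min from 22.6 and 10.0 RPM at 105 min.

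In the leucine pathway the isozyme genes LEU4 and LEU9, both α-isopropylmalate synthases of the committed step, moved in opposite directions. LEU4 (chromosome XIV, 424895 to 426754) stood at 800 to 974.4 RPM late (median 926.7), against 364.6 to 479.4 early (median 424) and 447.1 at 0 min. LEU9 (chromosome XV, 523027 to 524841) stood at 45.4 to 95.6 RPM late (median 68.8), against 140 to 194.9 early (median 173.6) and 191 at 0 min. Neither gene's late and early libraries overlapped. LEU4 rose by 1.07 (SE 0.05, adjusted p = 1.3e-17) and LEU9 fell by 1.35 (SE 0.13, adjusted p = 2.6e-10) late against early. With centred libraries LEU9 fell by 1.85 and LEU4, at 0.57, did not pass. LEU9 left its early range between 180 min (140.4 RPM) and 195 min (101.1 RPM) and reached 46.3 RPM at 225 min, while LEU4 climbed from 135 min on.

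LEU1, the isomerase of the next step, had 615.3 RPM in the 0 min library, 360.7 RPM by 30 min and 698.8 RPM by 165 min, and its late change from early was 0.26. LEU3, the transcription factor, was read at 16.1 to 36.1 RPM late (median 27.6), against 21.4 to 29.9 early (median 25.8), a log2 change of -0.03 with overlap. ILV1 encodes an enzyme of isoleucine synthesis alone, and the other ILV genes encode steps shared by isoleucine and valine. ILV5, the reductoisomerase, stood at 702.1 to 1111 RPM late (median 886.8), against 1290 to 1595 early (median 1454) and 1222 at 0 min, without overlap. Its log2 change was -0.71 (SE 0.07), short of 1, and -1.20 with centred libraries, where it passed. Changes of ILV1, threonine deaminase (-0.07), ILV2 and ILV6, the acetolactate synthase subunits (-0.05 and 0.37), and ILV3, the dehydratase (-0.22), were smaller and their windows overlapped.

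Stretches placed in the same way are shown for LEU9, the gene that fell, and ILV5, which had the largest drop among those with TGACTC within 250 bases. LEU9 holds the motif with its first base 257 bases before the coding start, and ILV5 at 140 bases here and at 2 places further upstream, 339 and 311 bases before. The motif thus stands upstream of HIS4 and of LEU9.
LEU9 (chrXV:522727-522926, plus strand): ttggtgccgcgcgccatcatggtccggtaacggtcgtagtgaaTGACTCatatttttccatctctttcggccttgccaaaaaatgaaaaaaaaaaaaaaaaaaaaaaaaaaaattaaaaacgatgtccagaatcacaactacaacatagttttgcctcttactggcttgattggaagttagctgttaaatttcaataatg
ILV5 (chrXII:839354-839553, minus strand): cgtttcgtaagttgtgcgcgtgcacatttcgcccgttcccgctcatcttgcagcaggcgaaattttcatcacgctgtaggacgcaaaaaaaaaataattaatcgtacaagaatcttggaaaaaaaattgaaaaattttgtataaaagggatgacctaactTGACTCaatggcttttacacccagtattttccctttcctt

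For the branched-chain aminotransferases the windows differed in opposite directions. BAT2, the cytosolic enzyme, stood at 140.4 to 196.9 RPM late (median 185), against 73.7 to 104.4 early (median 97.8) and 98.1 at 0 min, without overlap. BAT1, the mitochondrial enzyme, stood at 155 to 258.2 RPM late (median 195.9), against 225.8 to 330.9 early (median 264) and 271.3 at 0 min, with overlap. BAT1 was highest in the middle window, with 361.3 RPM at 165 min. The late change from early was 0.93 for BAT2 (SE 0.08, adjusted p = 2.9e-11) and -0.49 for BAT1 (SE 0.08, adjusted p = 4.4e-06), both short of the required size. BAT2 passed for change over time, with a fitted range of 1.09, and BAT1, at 0.83, did not. With centred libraries this turned round: BAT1 passed, at 1.27 (limma adjusted p = 3.5e-11), and BAT2, at 0.62, did not.

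The stretches of this pair are shown because they differ in what they hold. BAT1 has TGACTC at 171 bases before the coding start and, downstream of it in the same stretch, the core bound by Leu3 (CCGG, any 2 bases, CCGG), which is left in lower case. BAT2 has neither in this stretch.
BAT1 (chrVIII:517232-517431, plus strand): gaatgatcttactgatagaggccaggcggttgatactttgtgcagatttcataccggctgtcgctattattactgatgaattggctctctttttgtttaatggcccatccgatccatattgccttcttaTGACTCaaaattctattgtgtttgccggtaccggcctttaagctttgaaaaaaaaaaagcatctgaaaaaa
BAT2 (chrX:705444-705643, plus strand): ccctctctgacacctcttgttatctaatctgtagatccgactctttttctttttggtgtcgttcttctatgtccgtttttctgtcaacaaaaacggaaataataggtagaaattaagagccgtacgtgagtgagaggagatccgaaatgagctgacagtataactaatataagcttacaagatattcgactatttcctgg

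The ratio of the members of 6 pairs was tested directly with a two-sided exact permutation test of 8 late against 8 early libraries, adjusted over the 6 pairs. These libraries are successive time points, not replicates of a condition. The test takes no account of their order, so any steady trend in a ratio can give a small p. Ratios are of RPM, not per length, so only their change is read. The mean log2 ratio of LEU4 to LEU9 was 3.73 ± 0.32 late and 1.35 ± 0.11 early (SD, n = 8 each, exact permutation adjusted p = 3.1e-04), or 13.3 late, 2.55 early and 2.34 at 0 min on the linear scale. The ratio of BAT2 to BAT1 was 0.922 late, against 0.348 early and 0.361 at 0 min, a log2 difference of 1.41 (exact permutation adjusted p = 3.1e-04). The ratio of LYS20 to LYS21 was 1.19 late, against 0.560 early and 0.571 at 0 min, a difference of 1.09 (exact permutation adjusted p = 3.1e-04), with the limit on divided reads given above. For these 3 pairs no late library overlapped an early one, and the unadjusted p of 1.6e-04 is the smallest that 8 against 8 libraries allow. Of single genes tested, 36.1% lay higher and 6.51% lower in late libraries without overlap. Pairs of other genes were not tested, so how common such shifts in a ratio are is not known here.

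The other pairs differed less and their libraries overlapped. The ratio of ARO3 to ARO4, the isozymes that open the aromatic pathway, was 0.756 late, against 0.496 early (difference 0.61, exact permutation adjusted p = 0.00503). The ratio of ILV6 to ILV2, regulatory over catalytic subunit, was 1.38 late, against 1.03 early (0.42, adjusted p = 0.0135 by the same permutation test). The ratio of TRP3 to TRP2, the anthranilate synthase subunits, was 0.516 late, against 0.331 early (0.64, adjusted p = 4.7e-04 by the same permutation test). Set against the middle window these 3 differences were 0.23, 0.17 and 0.19, and none passed.

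**Figure D5:**
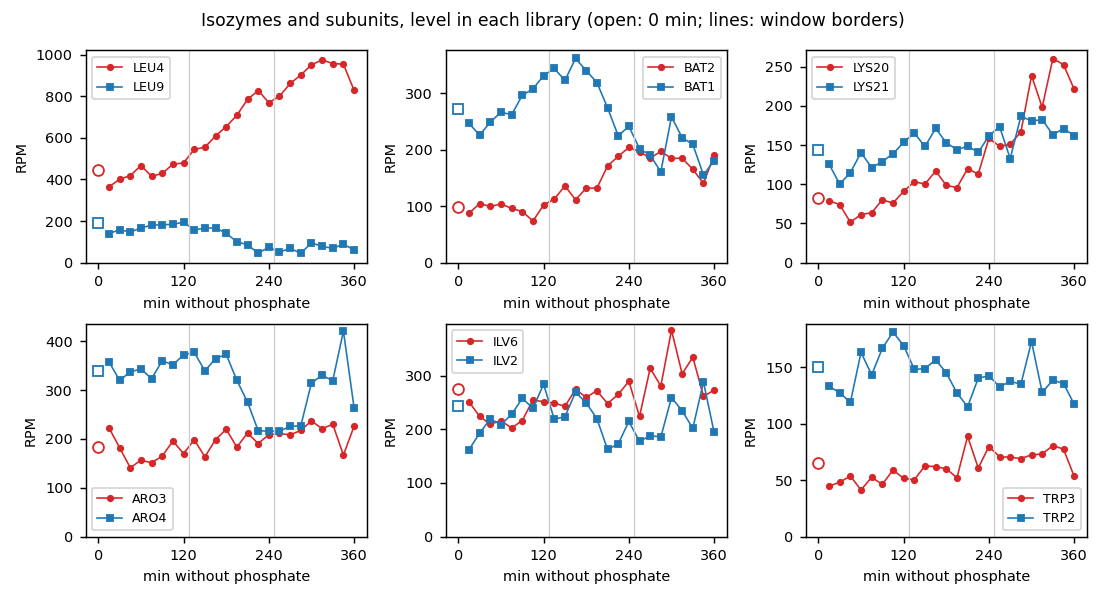
RPM of the genes of 6 pairs in each library by minutes without phosphate, isozymes in the first 4 panels and enzyme subunits in the last 2. Open points are the 0 min library and grey lines mark window borders. LEU4 and LEU9 diverge from about 135 min, BAT2 and BAT1 meet near 270 min, and ARO4 dips between 225 and 285 min.

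Of the tryptophan and aromatic genes, 0 of 11 passed in any of the 5 limma comparisons. For change over time 9 of the 11 had an unadjusted p under 0.05 with a fitted range under 1, and 4 (TRP4, ARO2, ARO4 and ARO7) passed with centred libraries, 36.4% of the 11, against 30.8% of all genes. TRP1, an isomerase, had 206.2 to 278.2 RPM late (median 220.5), against 130.8 to 159.2 early (median 140.5), and TRP5, tryptophan synthase, 359.7 to 479.4 late (median 380.7), against 234.7 to 282.3 early (median 248.9). Both pairs of windows were clear of each other, with log2 changes of 0.69 and 0.62. TRP4, anthranilate phosphoribosyltransferase, and TRP2 overlapped between windows, with changes of -0.15 and -0.12. The TRP4 medians were 83.5 RPM late and 83.1 RPM early, and its lowest late library, at 345 min, had 29.1 RPM from 12 reads. Whether the TRP4 call with centred libraries rests on that library was not tested.

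Of the aromatic genes, ARO2, chorismate synthase, had 121.1 to 169.4 RPM late (median 139.7), against 180.2 to 226.4 early (median 197.8), a log2 change of -0.48 without overlap. ARO7, chorismate mutase of the phenylalanine and tyrosine branch, had 79.6 to 115.4 RPM late, against 103.6 to 143.8 early and 159 at 0 min. Its late change from 0 min was -0.75, and -1.17 with centred libraries, where it passed. ARO1, which carries out several steps (0.24 late against early), ARO3 (0.30), ARO8, an aminotransferase (-0.18), and ARO4 (-0.33) overlapped between windows. ARO4 had a run of low libraries: it had 373.5 RPM in the 180 min library, 215.9 to 226.8 RPM from 225 to 285 min and 314.9 RPM by 300 min.

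GCN4 mRNA (chromosome V, 138918 to 139763, minus strand) was lowest in the middle of the course. It stood at 1040 RPM at 0 min, 743.2 to 871.1 RPM early (median 813.9), 647.3 to 857.2 RPM middle (median 728.4) and 830.7 to 1433 RPM late (median 1132). The log2 change from high phosphate was -0.35 early, -0.51 middle (SE 0.13, adjusted p = 0.0047) and 0.04 late. Late against early it differed by 0.39 (SE 0.06), below the median of all genes, and by -0.10 with centred libraries. It passed none of the 5 tests, with a fitted range over time of 0.95. It had 890.6 RPM in the 285 min library and 1214 RPM in the next.

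The late window was also divided between 285 and 300 min. There, 6 of the 44 genes had all 5 libraries from 300 to 360 min above all 3 from 255 to 285 min, which is 13.6% of them, against 8.74% of all genes tested, and 0 had them below (3.93% of all genes). This division was chosen after the values were seen and was not tested, so it is not read as a trait of the 44. The 6 were GCN4, CPA1, LYS20, ARO4, ILV2 and LEU3. LEU3 had the largest mean log2 difference of the 44 (0.81), though on few reads (12 to 106 per library). LYS20 (0.59) and ARO4 (0.55) came next, and GCN4 differed by 0.50. The median difference was 0.10 over the 44 and 0.04 over all genes.

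A further 12 genes of Gcn4 control were read beside it: GCN1, GCN2, GCN3 and GCN20, the GCD and SUI genes of initiation factors eIF2 and eIF2B, and PCL5, a cyclin that directs Gcn4 breakdown and is itself a Gcn4 target. Late against early 1 of 12 rose (8.33%, against 21.2% of all genes) and 0 fell, with a median of -0.25. The one that rose was PCL5, by 1.24 (SE 0.08, adjusted p = 3.2e-15), with 206.9 to 296.4 RPM late (median 259.1), against 93.1 to 126.1 early (median 105.1) and 143.8 at 0 min. With centred libraries PCL5, at 0.74, did not pass, and 2 of the 12 fell (16.7%, against 9.06% of all genes). Of 9 pathway regulators, ARG80 was listed in 2 libraries and not tested. Of the other 8, only ARO80, an activator of aromatic amino acid breakdown, rose late against early (12.5%, against 21.2% of all genes). ARO80 stood at 56.7 to 81.9 RPM late, against 17.6 to 28.2 early, a change of 1.48 (SE 0.10, adjusted p = 1.6e-13). With centred libraries its change was 0.98 and did not pass.

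TGACTC was common upstream of the 44 genes, in those that rose and in those that did not. Searched on both strands in 500 bases before the coding start, it stood upstream of 29 of 44 (65.9%), against 12.6% of 6008 promoters, at 42 places. Between 250 bases before and 50 after the coding start the counts were 23 of 44 (52.3%), against 7.97%. By pathway it was found in 500 bases in 7 of 7 arginine, 4 of 4 leucine, 5 of 6 histidine, 4 of 5 ILV, 3 of 5 tryptophan, 3 of 8 lysine and 2 of 6 aromatic genes, and not in GCN4. Of the 6 genes that rose late against early, 5 hold it in 500 bases, and so does LEU9. This depends on the window: between 250 bases before and 50 after, 3 called genes hold it (HIS4, LYS1 and LEU4). The other 4 do not, LEU9 among them. The median late change was 0.36 for the 29 genes with it and 0.39 for those without. TGACTCA, which contains TGACTC, stood in 24 of 44 (54.5%), against 4.01%. The Leu3 core stood in 500 bases upstream of ILV2, ILV5, LEU1 and BAT1 (9.09%), against 0.266% of promoters, and their median late change was -0.27.

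Other genes of amino acid metabolism give the surroundings. Of 10 further genes of the same pathways, 2 rose late against high phosphate and 0 fell. The share that rose, 20%, was near the 21.1% of all genes. One was HOM3, aspartate kinase, which rose by 1.12 (SE 0.28, limma adjusted p = 0.00157), and with centred libraries, at 0.70, did not pass. That comparison rests on 1 library at 0 min, and late against early HOM3 differed by 0.77 and did not pass. Of 15 genes for serine, asparagine, proline and glutamate, 3 rose late against early (20%, against 21.2% of all genes) and 0 fell, so the share that rose was near that of all genes. The same 3 passed with centred libraries (20%, against 8.55%). GLN1, glutamine synthetase, rose by 1.70 (SE 0.09, adjusted p = 1.8e-16), with 645.7 to 1036 RPM late, against 176.6 to 325.1 early. GDH3, a glutamate dehydrogenase, rose by 2.37 (SE 0.14), and SER3, of serine synthesis, by 1.68 (SE 0.13), although SER3 had whole reads in 40% of libraries. Of 7 genes of amino acid breakdown, 5 rose late against early and 0 fell, with a median of 1.53. The genes that rose were 71.4% of the 7, against 21.2% of all genes, and after centring 4 rose (57.1%, against 8.55%). ARO9, an aromatic aminotransferase, stood at 147.7 to 199.5 RPM late, against 16.6 to 44.8 early, and rose by 2.90 (SE 0.11, adjusted p = 5.8e-20). PUT1 and PUT2, of proline breakdown, rose by 1.88 (SE 0.17) and 1.29 (SE 0.08), and PUT2, at 0.79, did not pass after centring.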

How the data were processed

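Per the labels, RNA was extracted from each time point in 96-well format and cDNA of each sample was sequenced. The submitters' processing notes list Bowtie and R64. How reads were counted, on which strand, and how shared reads were treated was not given in the sources used here. Values were deposited as log2 RPM: the antilogs of each column sum to 1000000. The lowest listed value of a library was read as 10 reads, which makes 94.1% of all values whole reads within 0.01; lower values are blank and were left missing. Without strand, sense and antisense reads cannot be told apart.

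Genes listed in at least 13 of 25 libraries and in 3 of 8 of each window were tested (5298, of which 5230 had a 0 min value). The model in limma 3.58.1 (R 4.3.3) had a variance trend, an indicator for 0 min and, over the other libraries, a natural cubic spline on time (4 degrees of freedom). Residuals had 19 degrees of freedom and a median SD of 0.24. The fit was tested on simulated data. Each change is the difference of fitted window means, with p-values adjusted over all genes tested by Benjamini-Hochberg. Separate cultures are not named, so p-values measure spread between libraries. Permutation tests and figures used Python 3.11.15, scipy 1.17.1 and matplotlib 3.10.9.

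Members, lists, windows and tests were chosen with earlier results of these data known. Any of the 44 genes could be named, and of each other list the 3 called genes with the largest test statistic. Upstream stretches were to be shown for GCN4 and for the genes with the largest rise and fall that hold or lack TGACTC within 250 bases. GCN4 and CPA1 were left out because of their leaders, LYS20 was shown in place of CPA1, and BAT1 and BAT2 were added after their values were seen. Stretches come from the RefSeq R64 genome. Alternatives were other curve stiffness, scaling, filters, variance models, weights, minimum change and sets of libraries. Precision weights from reads, the 500-base window and the Leu3 core were added after seeing the data. A result on a further gene of the same pathways is not reported here.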

Additional observations from a re-analysis of the deposited data

Results flagged for a closer look

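In 8 of 132 groups of 8 or fewer libraries, a single library lay far from the others of its window, and chance flags about 1 group in 20. That rate takes no account of time order, so a rise at the edge of a window can be flagged too. ARG3 at 120 min had 24.9 RPM, against 7.02 to 10.9 RPM in the other early libraries, and the next libraries had 26.5 and 35.1 RPM. LYS20 at 240 min had 158.6 RPM, against 95.8 to 119.8 in the other middle libraries, and the next libraries had 148.4 and 151 RPM. Among late libraries, LYS9 at 345 min had 261.5 RPM (others 188.7 to 218.7), TRP2 at 300 min had 172.8 (others 117.3 to 138.6), LYS21 at 270 min had 132.7 (others 162.1 to 186.8) and TRP3 at 360 min had 53.3 (others 69.1 to 80.6). In the 345 min library, the shallowest, TRP4 had 29.1 RPM from 12 reads (others 75.3 to 94.2) and ARO3 had 167.1 RPM from 69 reads (others 208.4 to 237).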

How the results depend on the processing

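No paired analysis was possible because replicate numbers only name successive time points and pair no libraries. With each library centred on its median, which takes out a shift of 0.49 in the median of all genes late against early, 4 of the 44 passed late against high phosphate (2 higher and 2 lower, 4.55% each, against 10.8% and 11.8% of all genes). The centred pathway medians late against early were 0.18 for ARG, 0.07 for HIS, 0.034 for TRP, -0.069 for LYS, -0.10 for GCN4, -0.28 for BAT, -0.38 for LEU, -0.56 for ILV and -0.75 for ARO. Late against high phosphate they were 0.32 for HIS, -0.048 for LYS, -0.17 for ARG, -0.22 for BAT, -0.31 for TRP, -0.38 for GCN4, -0.67 for LEU, -0.78 for ILV and -0.79 for ARO. The sign turned for GCN4, LYS, LEU and BAT in the first set, and for GCN4, ARG, LYS, TRP and BAT in the second. With a minimum log2 change of 0.58, 15 passed late against early (34.1%, against 51.8% of all genes), 6 middle against high phosphate (13.6%, against 22%) and 31 for change over time (70.5%, against 71.2%). Against the middle window, the ratios ARO3 to ARO4 (0.23), ILV6 to ILV2 (0.17) and TRP3 to TRP2 (0.19) no longer passed. Leaving out each library in turn gave 7 to 7 calls late against early, 8 to 9 late against high phosphate, 3 to 3 in the middle window, 0 to 0 early and 11 to 16 for change over time. The cause of these differences was not tested. At 413033 reads, genes near the floor of 10 reads (ARG2, ARG3, LYS5) are limited by depth.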
